A study of Mus musculus with 12 samples.

Results

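The mouse zinc finger genes with a Zfp symbol were followed in naive CD8 T cells and in PD-1+ CD8 T cells sorted from melanoma. The genes were those whose symbol is Zfp followed by digits, leaving out Zfp36, whose product is an mRNA decay factor with a different type of zinc finger. A gene had to have at least 1 probe set that names only that gene, and it took the probe set with the highest mean over the 12 arrays. Of 304 such Zfp genes, the 204 with a mean log2 intensity of at least 6 are the members described here. The members were therefore chosen on their measured level over all 12 arrays, in which naive cells count for 5 arrays, and not on any difference between groups. A gene that is high in one group can reach the level through that group alone. The other 100 Zfp genes are counted separately below, and 14 further Zfp symbols occur only on probe sets shared with other genes and are not analysed here.

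Gene expression was measured on 12 Affymetrix mouse arrays of sorted CD8 T cells, 1 array per sample, from mice of the strain labelled C57bl/c aged 6 to 8 weeks. The naive group (n = 5) came from the spleen of naive mice. The tumour-infiltrating lymphocytes (TIL) came from mice bearing B16F10-GP, a skin melanoma line injected into the right flank, and were sorted between day 17 and day 19. The PD-1+ Tim-3- group (n = 3) was also negative for 2B4 and is called stem-like in the labels, and the PD-1+ Tim-3+ group (n = 4) was also positive for 2B4 and is called exhausted. PD-1, Tim-3 and 2B4 are surface receptors of activated T cells. Tissue of origin, tumour, antigen experience and tissue digestion all differ between the naive group and both TIL groups and cannot be told apart. The labels do not say whether replicates came from separate mice or whether mice were pooled, so p-values measure only the spread between these samples.

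The Zfp symbol is a naming convention and not a family with one function. Most of these genes encode proteins with tandem C2H2 zinc fingers, in which each finger can contact a few bases of DNA. Many of them also carry a KRAB domain, which binds the corepressor TRIM28 (KAP1), and TRIM28 in turn recruits the histone methyltransferase SETDB1 and HP1 proteins to silence retroelements and other targets. Others are transcriptional activators, RNA-binding proteins or ubiquitin ligases. KRAB zinc finger genes lie in clusters of neighbouring copies that arose by duplication.

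The values are array intensities that were turned into log2 intensities, and a change is a difference of group means on that scale with its standard error (SE). Each comparison is a contrast in 1 limma fit over 18193 genes, and a gene is called higher or lower where the Benjamini-Hochberg adjusted p over all of them is below 0.05. Median intensities of the arrays lay between 58.8 and 63.0, and arrays of 1 group correlated at 0.988 to 0.996 over genes. The level of log2 6 is percentile 44.2 of the gene means. The values have no detection calls, so a group mean below log2 5.71, percentile 40, may lie at background, and the size of a change against it is uncertain. Marker sums here are the log2 of summed intensities, so the brightest marker weighs most. The sum for 5 CD8 T cell markers lay between 14.5 and 14.9 on all 12 arrays. Of the 5, 1 was lower in each TIL group than in naive cells. Summed B cell markers were 9.07 to 9.50 on naive, 7.50 to 7.64 on Tim-3- and 7.24 to 7.42 on Tim-3+ arrays, and 2 of the 4 measured were lower in each TIL group than in naive cells. Of 7 melanoma markers, 2 were higher and 1 lower in Tim-3- and 4 higher and 1 lower in Tim-3+ TIL than in naive cells. Their summed levels were 8.71 to 9.12, 8.61 to 9.34 and 8.23 to 10.2. Pmel, the brightest in naive cells, had means of 8.05, 7.17 and 6.81 in the naive, Tim-3- and Tim-3+ groups. Sox10 had 6.63, 6.28 and 6.37. Tyrp1 went up, at 3.11, 6.15 and 6.77. Dct rose from 4.08 to 6.33 in Tim-3- TIL and further in Tim-3+ TIL. The sums show little of these rises, whose size is uncertain because both naive means may lie at background. Summed fibroblast and endothelium markers ran from 9.79 to 10.2 on naive, 8.71 to 8.80 on Tim-3- and 7.80 to 8.12 on Tim-3+ arrays, with 1 and 2 of 4 lower than in naive cells and Pecam1 the brightest. The 2 measured NK cell markers summed to 8.51 to 8.86, 10.7 to 10.8 and 9.65 to 10.1, nearly all from Eomes, which CD8 T cells also express, with Ncr1 at 3.40, 3.32 and 3.20. The 3 CD4 and regulatory T cell markers summed to 8.01 to 8.13, 8.73 to 8.93 and 8.32 to 8.51, with 2 and 1 higher than in naive cells. Summed monocyte and macrophage markers were 7.88 to 8.33, 8.69 to 8.87 and 8.25 to 8.74, with 1 and 2 of 6 higher. The part of other cells in the results below was not tested. The log2 difference between 3' and 5' probe sets of 5 control transcripts, a sign of RNA integrity, was 0.22 ± 0.15 (SD, n = 5) for naive, 0.23 ± 0.091 (n = 3) for Tim-3- and 0.13 ± 0.18 (n = 4) for Tim-3+ samples.

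Zfp members were mostly lower in TIL than in naive cells. Their median log2 level over the 204 members was 7.84 for naive cells and 7.39 and 7.34 for Tim-3- and Tim-3+ TIL, while over the 10159 genes with a mean of at least log2 6 it was 8.55, 8.58 and 8.63. The naive group had the highest of the 3 group means for 150 members, or 73.5%, against 43.4% of the genes at that level. Tim-3- and Tim-3+ TIL each had the highest mean for 27 members. Group means ran from 5.58 (Zfp772) to 12.20 (Zfp91) for naive cells, from 5.16 (Zfp946) to 12.60 (Zfp91) for Tim-3- and from 4.90 (Zfp516) to 12.55 (Zfp91) for Tim-3+ TIL. Probe sets differ in how brightly they bind, so the levels of different genes are not ranked. The median SD between replicates of a member was 0.19 for naive cells and 0.21 and 0.23 for Tim-3- and Tim-3+ TIL. In these sorted bulk samples, fewer cells that express a gene and less of its RNA per cell cannot be told apart.

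**Figure D1:**
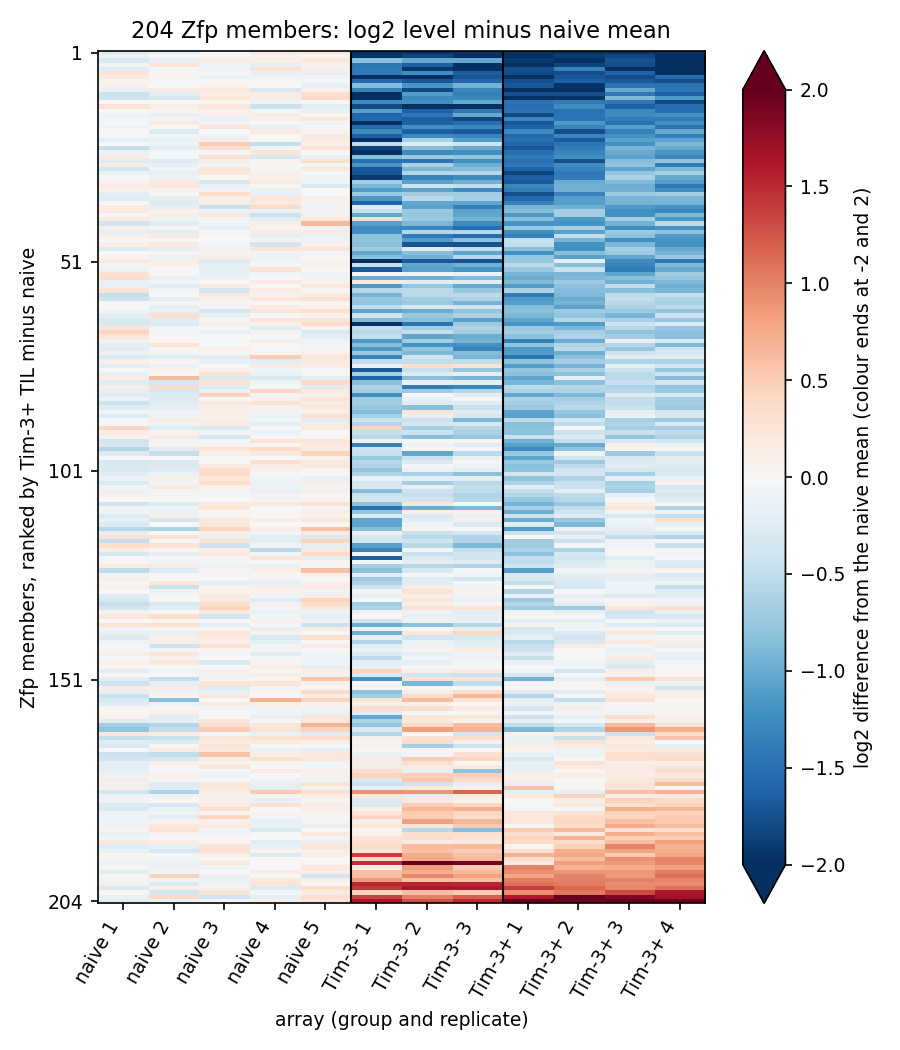
Log2 level minus the naive mean for the 204 Zfp members (lines, ranked by the change in Tim-3+ TIL) on each of the 12 arrays (columns), with blue below and red above the naive mean. Naive columns are pale throughout, and the upper lines are blue in the 3 Tim-3- and 4 Tim-3+ columns alike, while the red lines at the bottom are few.

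In Tim-3- TIL against naive cells, 96 of 204 members (47.1%) were lower and 20 (9.80%) were higher, and 88 did not pass the test. Over all 18193 genes, 18.3% were lower and 16.1% higher. Over the 10159 genes at the members' level, 25.1% were lower and 23.3% higher. The median log2 change of the members was -0.40, with quartiles at -0.91 and -0.05, against a median of -0.03 over genes at that level and -0.06 over all genes. At least 2-fold, 39 members (19.1%) were lower and 5 (2.45%) higher, against 5.01% and 6.99% of all genes. Over genes at the members' level these 2-fold shares were 7.01% and 9.87%. The groups stayed apart on every array for 94 members that were lower and 19 that were higher, shares of 46.1% and 9.31% against 19.0% and 16.1% of all genes. Over genes at the members' level the shares that stayed apart were 25.0% and 23.3%. The samples were listed as 5 arrays followed by 7, each run holding all 3 groups, which the labels do not call batches. Within the first 5 arrays (Tim-3+ replicates 1 and 2, naive replicates 1 and 2, and Tim-3- replicate 1), 82 members were lower and 10 higher, with a median of -0.49. Within the last 7, 101 were lower and 21 higher, with a median of -0.39. Shares of all genes called are not given for fits within a run, with a block, after centring or without 1 array, here or below. Such counts therefore have no background, and the runs differ in their number of arrays.

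Tim-3+ TIL against naive cells gave similar counts in a comparison that shares the naive arrays with the one above. Of 204 members, 106 (52.0%) were lower and 22 (10.8%) higher, and 76 did not pass the test. Over all genes, 21.4% were lower and 20.1% higher, and over genes at the members' level 28.3% were lower and 29.8% higher. The median change of the members was -0.43, with quartiles at -0.90 and -0.07, against -0.01 over genes at that level. At least 2-fold, 39 members (19.1%) were lower and 6 (2.94%) higher, against 6.03% and 8.25% of all genes. Over genes at the members' level these 2-fold shares were 8.76% and 11.7%. Arrays did not overlap for 93 members that were lower and 18 that were higher, 45.6% and 8.82% against 18.9% and 18.4% of all genes. Over genes at the members' level the shares without overlap were 25.7% and 27.6%. Within the first 5 arrays 101 members were lower and 15 higher (median -0.48), and within the last 7 arrays 98 were lower and 25 higher (median -0.37).

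Between the TIL groups few members differed. In Tim-3+ against Tim-3- TIL, 10 of 204 members (4.90%) were lower and 8 (3.92%) higher, against 5.77% and 7.77% of all genes and 8.29% and 11.4% of genes at the members' level. With each array centred on the median of expressed genes, 14 were lower and 5 higher. The median change was -0.02, against 0.03 over genes at that level. At least 2-fold, 2 members were lower and 0 higher, against 2.21% and 2.05% of all genes. Over genes at the members' level these 2-fold shares were 2.89% and 2.43%. Arrays did not overlap for 21 members that were lower and 15 that were higher, 10.3% and 7.35% against 9.57% and 13.1% of all genes. Over genes at the members' level the shares without overlap were 12.2% and 18.6%, both above those of the members. Within the first 5 arrays 9 were lower and 11 higher, and within the last 7 arrays 7 were lower and 11 higher. The count rose from 18 to 29 with the runs of arrays as a block, 15 lower and 14 higher, and dropped to 10 without Tim-3- replicate 2.

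The shift was present on each TIL array. The median over members of the log2 difference from the naive mean was -0.59, -0.31 and -0.38 on Tim-3- replicates 1 to 3, and -0.71, -0.46, -0.28 and -0.32 on Tim-3+ replicates 1 to 4. The 5 naive arrays lay between -0.10 and 0.09. None of the 7 TIL arrays overlapped with the naive arrays. The lowest values of both TIL groups, on Tim-3+ replicates 1 and 2 and on Tim-3- replicate 1, belong to the first 5 arrays, as do the naive arrays with the lowest medians. Over all genes at the members' level, the same median lay between -0.07 and 0.04 on the 12 arrays.

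**Figure D2:**
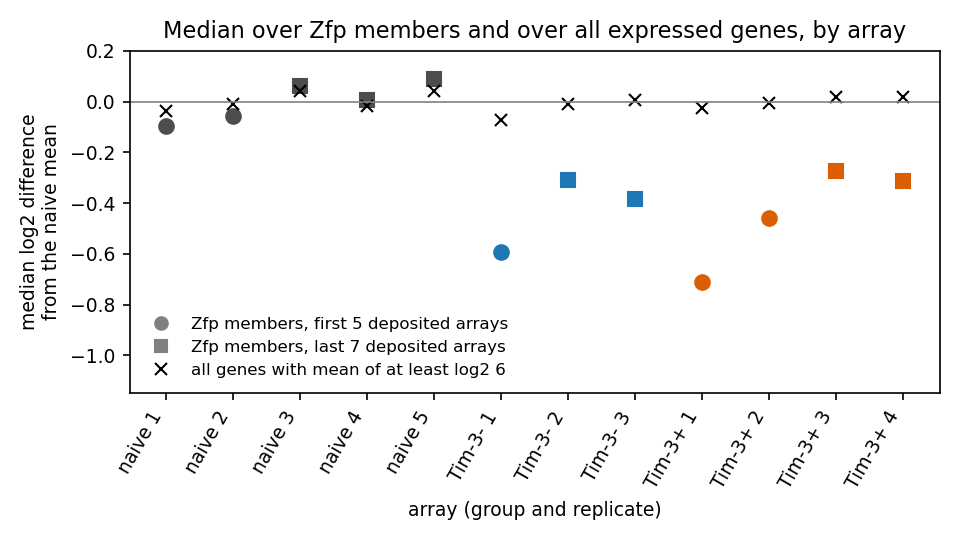
Median log2 difference from the naive mean on each array, over the 204 Zfp members (filled symbols, circles for the first 5 and squares for the last 7 deposited arrays) and over all genes with a mean of at least log2 6 (crosses). The members lie between -0.71 and -0.28 on the 7 TIL arrays, and the crosses stay between -0.07 and 0.04.

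Counts were also taken by the level of the members. Of the 204, 176 had a mean of at least log2 6 in every group. Among these, 76 (43.2%) were lower and 18 (10.2%) higher in Tim-3- TIL (median -0.37), and 87 (49.4%) were lower and 20 (11.4%) higher in Tim-3+ TIL (median -0.40), beside the same shares of genes at the members' level as above. The other 28 had a group mean below log2 6. Of these, 20 (71.4%) were lower and 2 (7.14%) higher in Tim-3- TIL, and 19 (67.9%) lower and 2 (7.14%) higher in Tim-3+ TIL, but a gene that passed only through its naive arrays had to be lower elsewhere. Among the 100 Zfp genes below the level, 39 were lower and 4 higher in Tim-3- TIL, against 18.3% and 16.1% of all genes. In Tim-3+ TIL 36 were lower and 5 higher, against 21.4% and 20.1%. All genes include those at the members' level, which were called more often, so these shares are not matched in level to the 100. In the third of members with the highest means (68 genes), 27 were lower and 9 higher in Tim-3- TIL, 39.7% and 13.2% against 23.6% and 24.1% of the 5806 genes in the same range. In Tim-3+ TIL 35 were lower and 10 higher, 51.5% and 14.7% against 27.5% and 31.4%. In the third with the lowest means, 40 were lower and 2 higher in Tim-3- TIL, 58.8% and 2.94% against 25.1% and 20.6% of the 2156 genes in that range.

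Group means of the genes nearest the level are given without a test. Zfp516, Zfp994 and Zfp324 each had a mean of 6.01 and were members. Zfp719 and Zfp41 at 5.99 and Zfp160 at 5.97 were not. Zfp994 had group means of 6.69, 5.25 and 5.74 in naive cells, Tim-3- TIL and Tim-3+ TIL, and Zfp719 had 6.96, 5.06 and 5.48. Zfp41 ran the other way, at 5.65, 5.97 and 6.44, and Zfp160 had 6.80, 5.08 and 5.60.

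**Figure D3:**
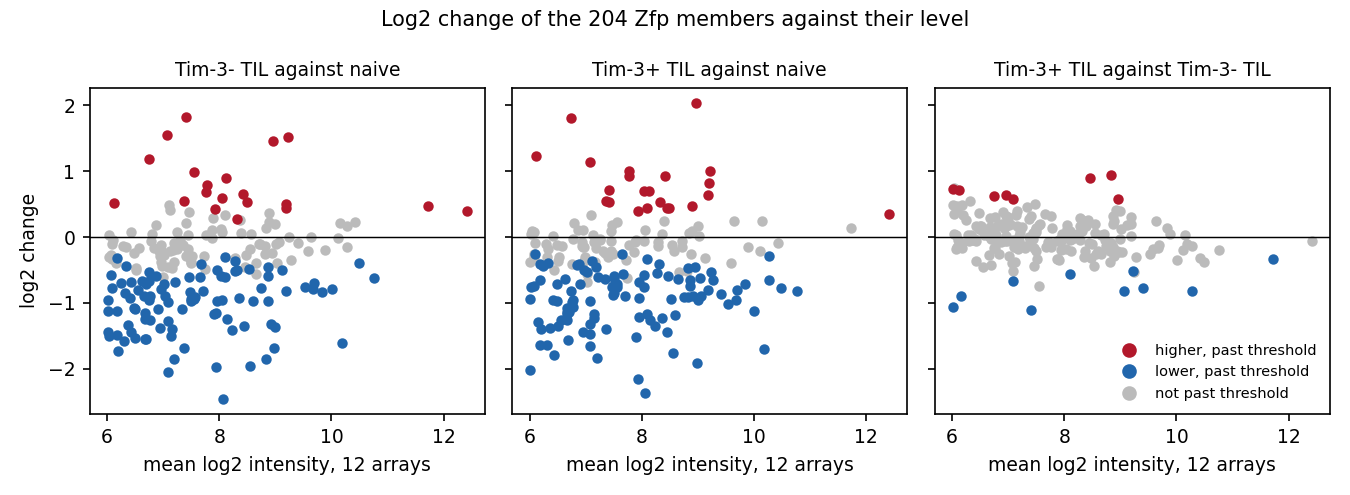
Log2 change of each of the 204 Zfp members (points) against its mean log2 intensity over 12 arrays, in each of the 3 comparisons, with calls at adjusted p below 0.05 in blue (lower) and red (higher). Blue points outnumber red at low and high levels in both comparisons with naive cells, 96 to 20 and 106 to 22, and most points are grey between the TIL groups.

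Several of the members that fell most have no role given here, and they come first by size. Zfp882 (probe set 1443640_at) had log2 levels of 9.18, 9.25, 9.47, 9.67 and 9.74 on the naive arrays, 6.67, 7.31 and 7.04 in Tim-3- TIL, and 6.69, 7.09, 7.30 and 7.31 in Tim-3+ TIL. Every TIL array lay below every naive array. The fall was 2.46 ± 0.18 (SE) in Tim-3- TIL, 5.50-fold lower (limma adjusted p = 1.48e-07), and 2.37 ± 0.17 in Tim-3+ TIL (adjusted p = 4.38e-08). A second probe set of Zfp882, at a lower mean of 5.53, changed by -1.54 and -1.64. Zfp866 (1455334_at) had 9.02 to 9.26 in naive cells, 7.20, 7.32 and 7.04 in Tim-3- TIL and 6.53, 7.25, 7.31 and 6.89 in Tim-3+ TIL. It fell by 1.97 ± 0.15 (adjusted p = 2.60e-07) and by 2.16 ± 0.14 (adjusted p = 1.97e-08). Tim-3+ replicate 1 was the lowest of its 12 arrays.

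Zfp397, Zfp182, Zfp661 and Zfp113 also fell in both TIL groups without overlap. Zfp397 had a mean of 9.63 ± 0.13 (SD, n = 5) in naive cells, 7.67 ± 0.22 (n = 3) in Tim-3- and 7.86 ± 0.19 (n = 4) in Tim-3+ TIL, changes of -1.95 and -1.76. Its next brightest probe set gave -0.54 and -0.75. Zfp182 went from 8.27 to 6.42 and 6.44, and its next probe set changed by -0.63 in Tim-3- and by -0.39 in Tim-3+ TIL, the latter with an adjusted p of 0.155. Zfp661 went from 8.26 to 6.57 and 6.85, and Zfp113 from 7.09 to 5.37 and 5.70. Zfp3 was 8.08 ± 0.31 in naive cells, 6.03 ± 0.24 in Tim-3- and 6.61 ± 0.16 in Tim-3+ TIL, with a next probe set that changed by -0.63 in Tim-3- TIL. Zfp595 and Zfp82 were among the largest falls in Tim-3+ TIL, by 1.80 and 1.64. The next probe set of Zfp82 changed by -0.33 there (adjusted p = 0.209).

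Among members known to act in silencing, Zfp809 fell in both TIL groups. Zfp809 is a KRAB protein that binds the proline tRNA primer binding site of murine leukaemia viruses and recruits TRIM28 there. Its levels (1440890_a_at) were 9.95, 10.32, 9.95, 9.85 and 10.12 in naive cells, 8.60, 8.40 and 8.07 in Tim-3- and 7.97, 8.20, 8.27 and 8.05 in Tim-3+ TIL. All 7 TIL arrays lay more than 1 log2 unit below the naive arrays. It fell by 1.68 ± 0.14 in Tim-3- TIL, 3.21-fold lower (adjusted p = 4.05e-07), and by 1.91 ± 0.13 in Tim-3+ TIL, 3.77-fold lower (adjusted p = 2.17e-08). The difference between the TIL groups, -0.23 ± 0.14, did not pass the test (adjusted p = 0.376). Zfp638, a DNA-binding protein that works with the HUSH complex to silence unintegrated retroviral DNA, had a mean of 9.66 ± 0.12 in naive cells, 8.30 ± 0.13 in Tim-3- and 8.70 ± 0.30 in Tim-3+ TIL. It fell by 1.36 ± 0.14 and 0.96 ± 0.13, and the mean of its probe sets gave -0.64 in Tim-3- TIL.

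Zfp217, a partner of the LSD1 and CoREST demethylase complex, fell in both TIL groups with little spread between replicates. Its log2 levels (1437414_at) were 11.21, 11.13, 11.14, 11.18 and 11.12 on the naive arrays, 9.61, 9.46 and 9.58 in Tim-3- and 9.40, 9.53, 9.48 and 9.39 in Tim-3+ TIL. Every TIL array lay below every naive array, and the TIL groups overlapped. It fell by 1.61 ± 0.084 in Tim-3- TIL (adjusted p = 4.49e-09) and by 1.71 ± 0.077 in Tim-3+ TIL (adjusted p = 3.72e-10). Zfp644, which partners the histone methyltransferases G9a and GLP, fell less, from 9.26 ± 0.17 to 8.67 ± 0.11 and 8.52 ± 0.15. Within the first 5 arrays its change in Tim-3- TIL was -0.57 with an adjusted p of 0.0688. Over all arrays its next probe set gave -0.65 there (adjusted p = 0.00324).

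Zfp652, a repressor that binds the ETO family corepressor CBFA2T3, was lower in both TIL groups but by different amounts. Its levels (1456520_at) were 9.80, 9.74, 9.31, 9.49 and 9.62 in naive cells, 7.47, 7.92 and 7.85 in Tim-3- TIL and 8.84, 9.42, 8.33 and 8.14 in Tim-3+ TIL. Tim-3+ replicate 2 lay inside the naive range. The change was -1.85 ± 0.24 in Tim-3- TIL (adjusted p = 2.72e-05) and -0.91 ± 0.22 in Tim-3+ TIL (adjusted p = 0.00347). In Tim-3+ TIL the next probe set gave -1.78, and the first 5 arrays gave -0.64 (adjusted p = 0.0573). In the test of the TIL groups against each other, Zfp652 was higher in Tim-3+ TIL by 0.94 ± 0.25 (adjusted p = 0.0207). That difference was 1.66 within the first 5 arrays and 0.35 within the last 7 (adjusted p = 0.143). It no longer passed without Tim-3+ replicate 1 (adjusted p = 0.0548), without Tim-3- replicate 1 (adjusted p = 0.0794) or in a fit of the TIL arrays alone (adjusted p = 0.0705). The next probe set passed in this comparison of the TIL groups, at 0.64 (adjusted p = 0.0242).

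Other regulators of chromatin and transcription differed less or not beyond the test (adjusted p in brackets). Zfp445, a KRAB protein that keeps imprints methylated, had 9.42 ± 0.28 in naive cells and 9.42 ± 0.075 in Tim-3- TIL, and it fell by 0.53 ± 0.16 in Tim-3+ TIL (adjusted p = 0.0137), with overlapping arrays. Within the first 5 arrays that change was -0.46 (adjusted p = 0.137), and the next probe set gave -0.77 (adjusted p = 0.000769) over all arrays. Zfp410, the activator of the nucleosome remodeller gene Chd4, rose by 0.43 and 0.40, with overlapping arrays, since naive replicate 3 at 8.11 lay among the TIL arrays. The rise in Tim-3- TIL did not pass without Tim-3- replicate 2 (adjusted p = 0.0704) or 3 (0.0502), nor the rise in Tim-3+ TIL without Tim-3+ replicate 4 (0.0531), and within the last 7 arrays neither passed (0.146 and 0.1). The next brightest set of Zfp410 gave 0.23 and 0.25, with adjusted p of 0.147 and 0.0677. Zfp148, a factor of GC-rich promoters, fell by 0.49 in Tim-3- TIL (adjusted p = 0.0424). Leaving out naive replicate 1 (0.0903) or 2 (0.0918) or Tim-3- replicate 2 (0.116) or 3 (0.136) ended the call, as did centring of the arrays (0.0613). Zfp263 fell by 0.29 in Tim-3+ TIL (adjusted p = 0.0225), which was lost without Tim-3+ replicate 1 (0.0816) or 2 (0.0508), within the first 5 arrays (0.065), within the last 7 (0.161) and with the replicate block (0.0668). Zfp746, known as PARIS, a repressor of PGC-1alpha, had means of 9.77 ± 0.33, 9.57 ± 0.55 and 9.38 ± 0.53 in the naive, Tim-3- and Tim-3+ groups. Its groups overlapped, and no comparison passed the test.

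Members that work on RNA, ribosomes or chromosome segregation were called in different directions. Zfp207, or BuGZ, which loads the checkpoint protein Bub3 onto kinetochores, fell from 11.19 ± 0.23 to 10.57 ± 0.12 (adjusted p = 0.00206) and 10.37 ± 0.14 (adjusted p = 7.00e-05). Its next probe set gave -0.38 (adjusted p = 0.109) and 0.03, and within the first 5 arrays the change in Tim-3- TIL was -0.66 (adjusted p = 0.0651). Zfp622, a factor of late 60S ribosome maturation, was 11.46, 11.66, 11.47, 11.57 and 11.66 in naive cells and 12.01, 12.04 and 12.05 in Tim-3- TIL. It rose there by 0.47 ± 0.086 (adjusted p = 0.000681), and the Tim-3+ arrays at 11.70, 11.67, 11.71 and 11.74 lay between the other groups. Zfp326, a subunit of the DBIRD complex that links transcript elongation to splicing, rose by 0.98 ± 0.26 in Tim-3- TIL (adjusted p = 0.00979). In Tim-3+ TIL its mean of 7.46 ± 0.47 was not separated from the naive mean of 7.23 ± 0.48. Zfp106, an RNA-binding protein needed in motor neurons, and Zfp830, a splicing-associated protein, passed in no comparison with their brightest probe sets, with changes from -0.32 to 0.23 and from -0.11 to 0.12. The next probe set of Zfp830, with a mean above log2 6, rose by 0.86 in Tim-3- (adjusted p = 0.000358) and by 0.53 in Tim-3+ TIL (adjusted p = 0.00577), so its probe sets disagreed.

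Of members known from lymphocytes, Zfp91 rose and Zfp318 fell in both TIL groups. Zfp91 is a ubiquitin ligase of the noncanonical NF-kappaB pathway. It had 12.08, 12.10, 12.25, 12.27 and 12.29 in naive cells, 12.48, 12.72 and 12.60 in Tim-3- and 12.43, 12.46, 12.66 and 12.64 in Tim-3+ TIL. The naive arrays all lay below the TIL arrays. It rose by 0.40 ± 0.10 (adjusted p = 0.00675) and 0.35 ± 0.093 (adjusted p = 0.00766), and within the first 5 arrays the same changes of 0.39 and 0.35 had adjusted p of 0.0876 and 0.0508. A further probe set gave 0.58 in Tim-3+ TIL. Zfp318, which B cells need to make IgD, fell by 1.31 ± 0.20 in Tim-3- TIL (adjusted p = 0.000114) and by 0.90 ± 0.18 in Tim-3+ TIL (adjusted p = 0.000983), and by 0.53 within the first 5 arrays in the latter. Zfp335, whose mutation blocks the maturation of naive T cells, ranged from 6.27 to 6.98 in naive cells, 6.44 to 6.54 in Tim-3- and 6.22 to 6.83 in Tim-3+ TIL. The 3 ranges overlap, and its changes of -0.17 and -0.13 did not pass the test.

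Zfp292 fell by 0.76 and 1.02 in the TIL groups, with adjusted p of 0.00265 and 8.39e-05. Zfp131, Zfp296 and Zfp384 passed in no comparison. Zfp296, a partner of the pluripotency factor Klf4, stayed between 7.23 and 7.62 on all 12 arrays. Zfp608, below the level with TIL arrays between 4.67 and 5.09, is not a member. The fixed genes Zfp143, Zfp260, Zfp422, Zfp609 and Zfp683 are not analysed here.

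The rises were fewer, and several rest on 1 of the gene's probe sets. Zfp367 (1433623_at) had 7.69, 7.79, 7.86, 8.06 and 8.21 in naive cells, 9.54, 9.20 and 9.40 in Tim-3- and 10.10, 9.86, 9.98 and 9.89 in Tim-3+ TIL. The 3 groups are stacked without overlap. It rose by 1.46 ± 0.13 in Tim-3- (adjusted p = 7.68e-07) and by 2.04 ± 0.12 in Tim-3+ TIL, 4.11-fold higher (adjusted p = 4.87e-09). A second probe set, at a mean of 5.80, gave 0.71 and 2.05. Zfp821 (1426889_at) had 6.58 to 6.94 in naive cells, 8.18, 8.80 and 8.63 in Tim-3- TIL and 6.92, 7.55, 7.57 and 7.68 in Tim-3+ TIL. It rose by 1.82 ± 0.18 in Tim-3- TIL, 3.52-fold higher (adjusted p = 2.11e-06), and by 0.71 ± 0.16 in Tim-3+ TIL (adjusted p = 0.00268), where replicate 1 lay inside the naive range.

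Zfp655 (1429217_at) was 8.51 ± 0.20 in naive cells, 10.03 ± 0.011 in Tim-3- and 9.51 ± 0.078 in Tim-3+ TIL, rises of 1.52 ± 0.11 and 1.00 ± 0.11. Its next brightest probe set, with a mean of 9.22, changed by -0.07 and -0.04 with adjusted p of 0.771 and 0.873, so its 2 brightest probe sets disagreed. Zfp703, a gene amplified in luminal breast cancer, rose by 1.55 ± 0.15 and 1.15 ± 0.14, and its next probe set gave 0.23 and 0.09 (adjusted p of 0.105 and 0.498). Zfp560 (1438026_at) rose by 0.66 ± 0.11 and 0.92 ± 0.097, but its next probe set, dim at a mean of 3.94, fell by 1.70 and 1.56. Zfp219, a partner of the cartilage factor Sox9, rose by 0.90 and 0.69, and by 1.36 within the first 5 arrays in Tim-3- TIL. Zfp868 and Zfp931 rose by 0.79 and 0.68 in Tim-3- TIL and by 0.93 and 1.00 in Tim-3+ TIL. Within the first 5 arrays Zfp868 changed by 0.36 in Tim-3- TIL (adjusted p = 0.276). Zfp142 and Zfp472 were among the 10 largest rises in Tim-3+ TIL, by 0.81 and 0.71.

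**Figure D4:**
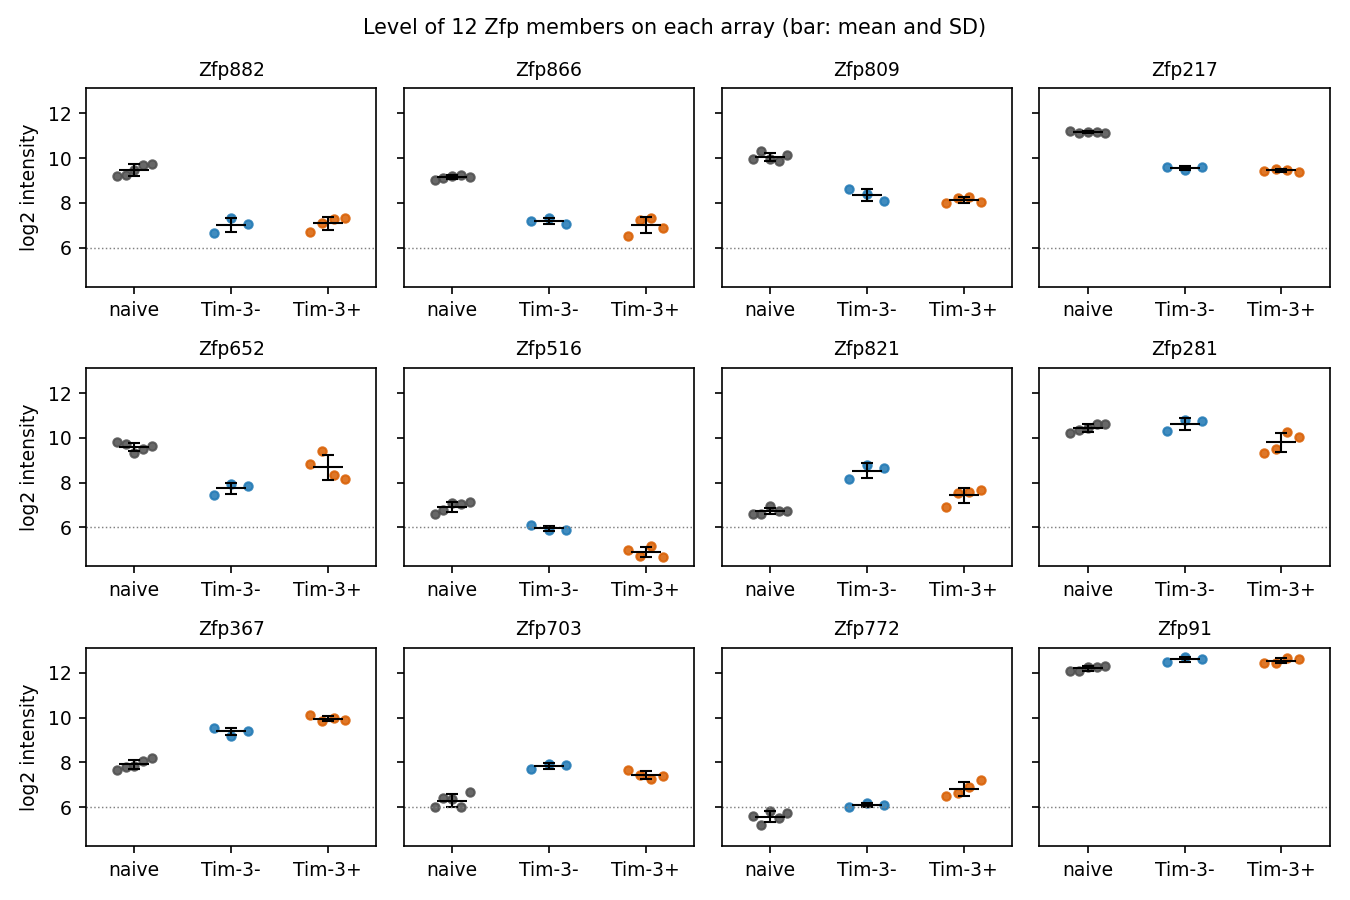
Log2 intensity of 12 Zfp members on each array (points) with the group mean and SD (bars), for naive, Tim-3- and Tim-3+ cells, with the dotted line at log2 6. Zfp882, Zfp866, Zfp809 and Zfp217 are lower in both TIL groups, Zfp367, Zfp703 and Zfp91 are higher in both, and Zfp821 is highest in Tim-3- TIL with a mean of 8.54.

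Members that differed between the TIL groups were led by Zfp821 and Zfp516. Zfp821 was lower in Tim-3+ than in Tim-3- TIL by 1.11 ± 0.19, 2.15-fold (adjusted p = 0.00106), and within the first 5 arrays by 0.95 (adjusted p = 0.0898). Zfp516, an activator of brown fat genes such as Ucp1, had 6.60 to 7.13 in naive cells, 6.09, 5.90 and 5.90 in Tim-3- and 5.01, 4.73, 5.19 and 4.69 in Tim-3+ TIL. Each group lay below the one before it. It was 2.09-fold lower in Tim-3+ than in Tim-3- TIL, a change of -1.06 ± 0.15 (adjusted p = 0.000359), from levels that may lie at background. Its next probe set gave -0.25 (adjusted p = 0.242), and against naive cells -0.75 where the brightest gave -2.02.

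Zfp62 and Zfp362 were lower in Tim-3+ TIL than in either other group. Zfp62 had 9.22 to 9.67 in naive cells, 9.34, 9.34 and 9.23 in Tim-3- and 8.46, 8.48, 8.35 and 8.67 in Tim-3+ TIL. It was lower in Tim-3+ than in Tim-3- TIL by 0.81 ± 0.12 (adjusted p = 0.000371), and its change in Tim-3- against naive cells, -0.08 ± 0.11, did not pass. Zfp362 had 9.55 to 9.88, then 9.91, 9.48 and 9.51, then 8.84, 8.99, 8.76 and 8.84. It was lower in Tim-3+ than in Tim-3- TIL by 0.78 ± 0.12 (adjusted p = 0.000708). Zfp281, a factor of GC-rich promoters known from embryonic stem cells, had 10.32, 10.79 and 10.73 in Tim-3- and 9.33, 9.52, 10.28 and 10.05 in Tim-3+ TIL, a change of -0.82 ± 0.21 (adjusted p = 0.0161, and in brackets below). The nearest arrays of the 2 groups, at 10.32 and 10.28, were close, and it did not pass without Tim-3- replicate 2 (0.0787) or 3 (0.0647) or in a fit of the TIL arrays alone (0.0584). The next probe set of Zfp281 passed at -0.53 (0.0176). Zfp667 and Zfp710 were lower by 0.90 and 0.66. Within the last 7 arrays their changes were -0.72 and -0.42 with adjusted p of 0.15 and 0.0654, and the next probe set of Zfp710 gave -0.17 (0.469). Zfp655, described above, was lower by 0.51, with 0.04 from its next probe set and an adjusted p of 0.23 within the first 5 arrays.

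Of the 8 members called higher in the Tim-3+ group in this comparison of the TIL groups, Zfp938 and Zfp772 kept their calls in each fit without 1 array (further adjusted p in brackets). Zfp938 had 8.48, 7.86 and 7.57 in Tim-3- and 8.91, 9.07, 8.71 and 8.78 in Tim-3+ TIL, a change of 0.90 ± 0.19 (adjusted p = 0.00641), and 0.51 within the first 5 arrays (adjusted p = 0.129). Zfp772 had 6.02, 6.20 and 6.08 against 6.50, 6.64, 6.90 and 7.22, a change of 0.71 ± 0.17 (adjusted p = 0.014). Its next probe set gave 0.36 (0.452), and within the first 5 arrays the adjusted p was 0.169. Zfp367 was higher by 0.58 (adjusted p = 0.0104), which did not pass without Tim-3- replicate 2 (0.064) or within the first 5 arrays (0.163), while its next probe set gave 1.34.

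The calls of Zfp324, Zfp407, Zfp3 and Zfp622 between the TIL groups were each lost without any of several arrays (adjusted p in brackets). Zfp324, higher by 0.74, did not pass without Tim-3- replicate 1 (0.117) or 2 (0.0517), within the last 7 arrays (0.0927) or in a fit of the TIL arrays alone (0.0908). Zfp407, an adipocyte regulator of glucose uptake, was higher by 0.64. It did not pass without Tim-3+ replicate 1 (0.0787) or 2 (0.0653), without Tim-3- replicate 1 (0.0963) or 2 (0.0925), or within the last 7 arrays, where the change was 0.41 (0.146). Its next probe set gave 0.17 (0.621), and centring of the arrays ended the call (0.0784). Zfp3, higher by 0.58, lost its call without naive replicate 2 (0.0545), Tim-3+ replicate 1 (0.0776), 2 (0.116) or 4 (0.0747), or Tim-3- replicate 2 (0.193) or 3 (0.114), within either run of arrays (0.204 and 0.0971) and after centring (0.099). Its next probe set gave -0.02. Zfp622, lower by 0.33, lost its call without Tim-3+ replicate 1 (0.06), 2 (0.066) or 3 (0.0515), without Tim-3- replicate 2 (0.088) or 3 (0.0855), within either run (0.25 and 0.112) and with the replicate block (0.0517), and its next probe set gave -0.26 (0.36).

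Zfp53 and Zfp52 are neighbours on chromosome 17 that went opposite ways. Zfp53 (1449414_at) had 8.81, 8.87, 8.51, 8.68 and 8.34 in naive cells, 7.73, 8.21 and 8.16 in Tim-3- and 7.36, 7.68, 7.66 and 7.21 in Tim-3+ TIL. Zfp52 (1426471_at) had 5.70, 6.22, 5.44, 5.66 and 6.17, then 7.20, 6.85 and 7.04, then 7.44, 7.95, 7.69 and 7.52. The first stepped down over the groups and the second stepped up, without overlap between any pair of groups. Zfp53 fell by 0.61 ± 0.16 in Tim-3- (adjusted p = 0.00782) and 1.17 ± 0.14 in Tim-3+ TIL (adjusted p = 1.40e-05), and Zfp52 rose by 1.19 ± 0.18 (adjusted p = 0.000135) and 1.81 ± 0.17 (adjusted p = 6.81e-07). A dimmer probe set of Zfp52, at a mean of 6.11, gave -0.41 (adjusted p = 0.14) and 0.10 (adjusted p = 0.7). In Tim-3+ against Tim-3- TIL, Zfp53 was lower by 0.56 and Zfp52 higher by 0.62 (adjusted p = 0.0378 and 0.0443, others in brackets). Zfp53 did not pass when naive replicate 4 (0.0507), Tim-3+ replicate 1 (0.0941) or 4 (0.103), or Tim-3- replicate 2 (0.164) or 3 (0.137) was left out, within the first 5 arrays (a change of -0.22, 0.528) or in a fit of the TIL arrays alone (0.0652). Zfp52 did not pass when naive replicate 1 (0.0531) or 4 (0.0527), Tim-3+ replicate 2 (0.122), 3 (0.0853) or 4 (0.0575), or Tim-3- replicate 2 (0.176) or 3 (0.104) was left out, within either run (0.372 and 0.0983) or after centring of the arrays (0.0792).

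Neighbouring members were counted over the genome, from the gene order in RefSeq's GRCm38.p6 annotation. There were 46 pairs of members next to each other, which took in 77 members. In Tim-3- TIL both genes were lower than in naive cells in 15 pairs (32.6%), none had both higher, and 3 (6.52%) had one lower and one higher. Of the 5775 neighbouring pairs of any genes at the members' level, which include these, 7.84% were both lower, 7.43% both higher and 9.37% opposite. In Tim-3+ TIL 17 member pairs (37.0%) were both lower, 1 (2.17%) both higher and 4 (8.70%) opposite, against 9.94%, 11.6% and 13.2% of all such pairs. Single members were also lower more often than genes at their level, and whether neighbours moved together beyond that was not tested. Between the TIL groups the pair of Zfp53 and Zfp52 was the single one with calls on both genes. Zfp709, Zfp882, Zfp617 and Zfp961 lie in a row on chromosome 8, and all 4 were lower in both TIL groups, by 1.39, 2.46, 0.98 and 0.66 in Tim-3- and by 1.22, 2.37, 0.93 and 0.82 in Tim-3+ TIL. Zfp82 and Zfp566, also neighbours, changed by -1.48 and -1.58 in Tim-3- and by -1.64 each in Tim-3+ TIL. Zfp418 and Zfp772 differed, at -1.17 and 1.23 in Tim-3+ TIL. Duplicated neighbours can share sequence, and cross-hybridisation between them was not tested. The neighbours outside the naming rule were chosen with their values already seen.

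Promoters are shown for some of the members with large changes in each direction, chosen with their values already seen, and for the opposite neighbours Zfp53 and Zfp52, so that the sequence upstream of genes with different changes can be read side by side. Each line is 150 bases that end just before the annotated start, 5′ to 3′ on the gene's strand, from RefSeq's GRCm38.p6 table. Capitals mark a CCAAT box (CCAAT, or ATTGG where it lies on the other strand) or an ETS core (CCGGAAG).
Zfp882, chr8:71908456-71908605, plus strand: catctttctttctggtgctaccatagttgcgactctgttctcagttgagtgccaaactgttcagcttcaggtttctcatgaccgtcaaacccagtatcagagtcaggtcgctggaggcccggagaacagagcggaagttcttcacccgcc
Zfp866, chr8:69774912-69775061, minus strand: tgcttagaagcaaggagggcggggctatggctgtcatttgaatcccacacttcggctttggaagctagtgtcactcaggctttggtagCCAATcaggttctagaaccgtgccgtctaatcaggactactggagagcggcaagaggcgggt
Zfp809, chr9:22225553-22225702, plus strand: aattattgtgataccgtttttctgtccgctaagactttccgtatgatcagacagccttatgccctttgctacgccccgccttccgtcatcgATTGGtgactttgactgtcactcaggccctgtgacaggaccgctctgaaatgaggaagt
Zfp53, chr17:21488838-21488987, plus strand: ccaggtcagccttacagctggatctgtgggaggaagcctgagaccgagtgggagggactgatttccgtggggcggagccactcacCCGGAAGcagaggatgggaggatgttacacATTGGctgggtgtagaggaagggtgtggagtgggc
Zfp52, chr17:21535389-21535538, plus strand: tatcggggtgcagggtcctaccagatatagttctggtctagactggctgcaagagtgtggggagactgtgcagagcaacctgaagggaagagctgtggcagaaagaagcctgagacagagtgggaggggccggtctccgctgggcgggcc
Zfp655, chr5:145231592-145231741, plus strand: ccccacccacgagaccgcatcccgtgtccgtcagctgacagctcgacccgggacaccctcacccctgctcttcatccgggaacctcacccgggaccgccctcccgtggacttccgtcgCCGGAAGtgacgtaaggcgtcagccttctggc
Zfp367, chr13:64153200-64153349, minus strand: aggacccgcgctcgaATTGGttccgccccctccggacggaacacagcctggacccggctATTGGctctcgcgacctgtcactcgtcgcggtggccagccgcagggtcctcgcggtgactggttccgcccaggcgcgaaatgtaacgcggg

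Zfp866 and Zfp809, both lower in TIL, each hold 1 CCAAT box in these 150 bases, 62 and 59 bases before the start, that of Zfp809 on the other strand. Zfp367, which rose, holds 2 on the other strand. Zfp53, which fell, and Zfp655, which rose, hold an ETS core, Zfp53 also has a CCAAT box on the other strand, and Zfp882 and Zfp52 hold neither motif in this window. Zfp809 and Zfp367 have 2 listed starts each, and one is shown.

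Over longer windows of 250 bases before the start, 172 of the 204 members matched 211 promoters, and 32 did not match. CCAAT on either strand occurred in 44.5% of member promoters, against 35.2% of the promoters of genes with a mean of at least log2 6 and 33.8% of all 32851 promoters. It occurred in 51 of the 102 promoters of members lower in Tim-3+ TIL than in naive cells and in 13 of the 25 of members higher there. The ETS core CCGGAAG occurred in 13.7% of member promoters and 14.5% of those of genes at that level, and in 6.91% of all promoters. It occurred in 13.7% of the promoters of lower and in 24.0% of those of higher members. TATAAA occurred in 7.58% of member promoters, in 6.16% of those of genes at that level and in 12.4% of all. The E-box CACGTG, the cyclic AMP element TGACGTCA and the E2F motif GCGGGAA, each sought on both strands, occurred in 5.69%, 2.84% and 6.16% of member promoters, in 8.55%, 2.74% and 6.93% of those of genes at that level, and in 6.02%, 1.55% and 3.82% of all. These shares are descriptions of letters in a window and were not tested.

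Probe sets of the same gene mostly pointed the same way. Of the 204 members, 90 have 1 probe set and 114 have more, up to 7. Of 74 members called in Tim-3+ TIL against naive cells that have a further probe set, 67 had a next brightest probe set with the same sign, and 46 of these passed the test as well. Zfp266, Zfp560 and Zfp593 had a next probe set that passed in the opposite direction. In Tim-3- TIL the same sign held for 61 of 66, with 47 also called, and Zfp560 was opposite. Between the TIL groups the same sign held for 11 of 13, but only 4 were also called. Where the next probe set was at least log2 6, 3 of 9 were also called. Members with a plain probe set, the type designed to match 1 transcript, numbered 178, of which 94 (52.8%) were lower and 17 (9.55%) higher in Tim-3+ TIL. Over genes at the members' level, with any type of probe set, the shares were 28.3% and 29.8%.

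Genes that work with KRAB zinc fingers were measured as a list of 30 corepressor and heterochromatin symbols. Tasor was listed under an older symbol as well, so the list held 29 genes, and all had a value. In Tim-3- TIL 11 (37.9%) were lower and 3 (10.3%) higher than in naive cells, against 25.1% and 23.3% of genes at the members' level. In Tim-3+ TIL 10 (34.5%) were lower and 5 (17.2%) higher, against 28.3% and 29.8%. The medians were -0.12 and -0.09. Trim28 and Setdb1 are named here for their role, with their values already seen. Trim28 itself had means of 10.44 ± 0.19, 10.44 ± 0.032 and 10.56 ± 0.020 in the naive, Tim-3- and Tim-3+ groups, and no comparison passed. Setdb1 went from 9.35 ± 0.051 to 8.56 ± 0.085 and 8.90 ± 0.16, falls of 0.79 and 0.45 (adjusted p = 2.41e-05 and 0.000983). Atf7ip, the partner of SETDB1, fell by 1.50 and 1.99. Tasor, a HUSH subunit, fell from 9.76 ± 0.069 to 8.29 ± 0.47 and 7.42 ± 0.25, and Chd3, a remodeller of the NuRD complex, from 10.32 to 9.44 and 8.43. Uhrf1, which brings DNA methyltransferase to newly copied DNA, rose by 2.67 and 3.50. Chd4, the target of Zfp410, changed by -0.27 and -0.31, which did not pass.

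The Zbtb genes, whose zinc fingers are joined to a BTB domain, were called in both directions. Of 39 with a value, the 32 with a mean of at least log2 6 were counted. In Tim-3- TIL 9 (28.1%) were lower and 7 (21.9%) higher, near the 25.1% and 23.3% of genes at that level. In Tim-3+ TIL 12 (37.5%) were lower and 5 (15.6%) higher, against 28.3% and 29.8%. The medians were -0.02 and -0.23. Zbtb32, induced in activated lymphocytes, rose by 2.28 and 2.91, and Zbtb21 by 1.78 and 0.80, while Zbtb18 fell by 1.87 and 3.20 and Zbtb4, which binds methylated DNA, by 0.87 and 1.37. Of 19 Zscan and Zkscan genes, which join the fingers to a SCAN domain, all had a value and 13 reached that level. Of these, 5 (38.5%) were lower and 2 (15.4%) higher in Tim-3- TIL and 7 (53.8%) lower and 1 (7.69%) higher in Tim-3+ TIL, with medians of -0.39 and -0.73. Zkscan8 fell by 2.13 and 2.05, Zscan22 by 1.63 and 1.54, Zscan26 by 0.87 and 1.24, and Zkscan1 by 0.57 and 1.65. Between the TIL groups, 6 Zbtb genes (18.8%) were lower and 1 (3.12%) higher in Tim-3+ TIL, 2 Zscan or Zkscan genes (15.4%) lower and 0 higher, and 3 corepressors (10.3%) lower and 4 (13.8%) higher, against 8.29% and 11.4% of genes at that level. The difference between these lists and the Zfp members was not tested.

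**Figure D5:**
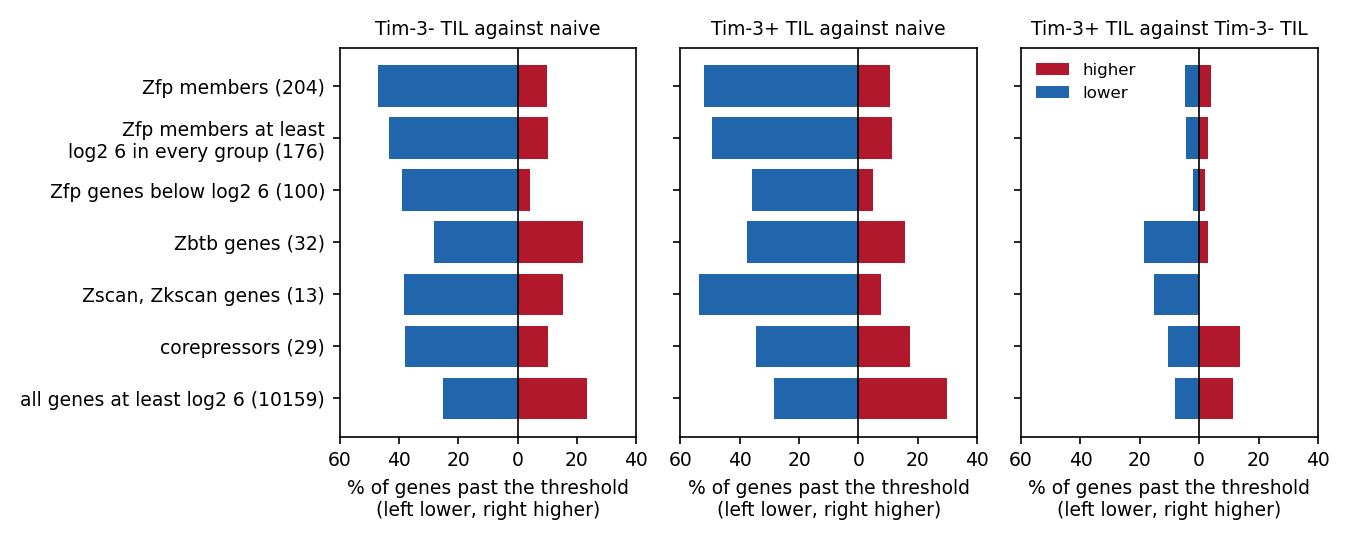
Percent of genes past the threshold (horizontal axis, lower to the left and higher to the right) in each of the 3 comparisons, for the Zfp members, their subsets, the related lists and all genes with a mean of at least log2 6, with the number of genes in brackets. In both comparisons with naive cells the Zfp members reach 47.1% and 52.0% on the lower side and 9.80% and 10.8% on the higher side, against 25.1% and 28.3%, and 23.3% and 29.8%, of all genes at that level.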

How the data were processed

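The deposited values are linear array intensities per probe set. The authors used RMA and the affy package, per the submitters' processing notes. The sources used here give neither their versions nor the step back from log2 values, and do not say if the arrays went through RMA together. The table holds 45101 probe sets. Array annotation names exactly 1 gene for 34945, several for 932 and none for 9160, and 64 are controls. Symbols were updated through RefSeq, which matched 34741. A gene took its brightest probe set by mean. The log2 values of 18193 genes were fitted with limma 3.58.1 (R 4.3.3) as 3 group means over 12 arrays, with default moderation, two-sided tests and Benjamini-Hochberg adjustment. Errors are SE for changes and SD for levels. The procedure was tested on simulated data. Python 3.11.15, numpy 2.4.6, pandas 2.3.3 and matplotlib 3.10.9 did the rest.

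The members and lists were chosen with earlier results of these data known. Genes are named by a rule: per comparison the 10 largest rises and 10 largest falls among members past the threshold whose arrays do not overlap, 29 fixed genes with known roles, the 3 genes on each side of the level, and up to 4 genes of each related list; neighbours and others are named where said. Features of the proteins, such as finger number, are not analysed here. Same-numbered replicates deviated together in all 4 pairs of naive and Tim-3+ arrays (r of 0.39, 0.28, 0.27 and 0.20). Tim-3- replicates 1 and 3 gave r of 0.29 and 0.27 with naive and 0.52 and 0.34 with Tim-3+ arrays. Tim-3- replicate 2 gave -0.23 and -0.22. Those negative pairs are the ones that join arrays of different runs, and every other pair lies within the same run. Whether the deviations follow the replicate number or the run was not tested. The numbers of arrays limit the precision. Alternatives changed the probe set rule, the normalization, the level, the moderation, the arrays used, the centring and the blocks.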

Additional observations from a re-analysis of the deposited data

Results flagged for a closer look

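The 58 named genes were screened in the naive and Tim-3+ groups, and the 3 Tim-3- arrays are not covered. In 4 of these 116 combinations, 1 array stood apart from the rest of its group by more than Dixon's 95% limit. Chance alone gives about 1 in 20. Zfp113 was at 7.28 on naive replicate 2, with the other naive arrays between 7.01 and 7.08. Zfp324 was at 6.66 on naive replicate 3, against 6.32 to 6.41. Zfp410 was at 8.11 on the same array, against 7.46 to 7.65. Zfp821 was at 6.92 on Tim-3+ replicate 1, against 7.55 to 7.68 on the other Tim-3+ arrays.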

How the results depend on the processing

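The number of members called against naive cells stayed within 1.5 times under the alternatives tried, with 1 exception. Of the 139 members with a mean of at least log2 7, 76 were called in Tim-3- TIL, where the list itself is shorter than 204. Among these 139, 58 (41.7%) were lower and 18 higher, against 47.1% lower of the 204. The share over all genes with a mean of at least log2 7 is not given, so these counts have no background at that level. Between the TIL groups the 18 calls became 29 with the runs of arrays as a block. Leaving out 1 array gave 100 to 117 calls for Tim-3- and 114 to 132 for Tim-3+ TIL against naive cells, and 10 to 22 between the TIL groups. The medians then ranged from -0.46 to -0.34, from -0.51 to -0.35 and from -0.07 to 0.05. Calls held in every fit without 1 array for 94 of 116, 108 of 128 and 9 of 18 members. With the replicate block there were 112 calls (23 higher, 89 lower), 129 (23 and 106) and 24 (11 and 13), with medians of -0.35, -0.41 and -0.03.

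Centring each array on the median of expressed genes shifted the median of genes at the members' level to -0.07, -0.10 and -0.02 in the 3 comparisons and gave 119, 139 and 19 calls. Over the named genes and settings, 2622 values were counted as unchanged, 112 no longer passed, 35 newly passed and 11 were counted as turned in sign. A change that passed in neither setting could turn sign and still count as unchanged. Zfp62 in Tim-3- TIL, lower with its brightest probe set, was at 0.26 (limma adjusted p = 0.125) with the next. The next brightest probe set turned Zfp52 (-0.41), Zfp560 (-1.70), Zfp655 (-0.074) and Zfp830 (0.86) in Tim-3- TIL, Zfp560 (-1.56), Zfp655 (-0.036) and Zfp207 (0.031) in Tim-3+ TIL, and Zfp655 (0.038) and Zfp3 (-0.024) between the TIL groups. The mean of all probe sets turned Zfp560 (-0.52 and -0.32). The cause was not tested. With 3 to 5 arrays a group, small changes of dim genes are the least certain.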
